A study of Mus musculus with 32 samples.

Results

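The ribosome joins a small subunit, which reads the messenger RNA, to a large subunit, which forms the peptide bonds, and each is built from ribosomal RNA and a set of small basic proteins. On the large subunit a flexible stalk of phosphoproteins recruits the translation factors. The mRNAs of these proteins usually begin with a C followed by a run of pyrimidines, the 5′ terminal oligopyrimidine (TOP) tract, through which the kinase mTORC1 and the protein Larp1 control their translation together. The late 2-cell stage of the mouse is the time at which stored maternal RNA gives way to RNA made by the embryo's own genome, and messages for ribosomal proteins are present on both sides of that change.

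The members are the 86 genes of the deposited table of 34223 genes whose symbols are those of cytoplasmic ribosomal proteins, selected by symbol and not by any measured value. They comprise 49 genes of the large subunit, 34 of the small subunit and 3 of the stalk. Pseudogenes, kinases and mitochondrial ribosomal proteins were not selected. Fau, which encodes a ribosomal protein as a fusion with a ubiquitin-like peptide, and Rack1, which the table lists as Gnb2l1, have other symbols and are described with the neighbouring pathways. All embryos were wild-type, fertilised in vitro and sampled 28 h later, and all had received mRNA for an H3.3-GFP fusion. The 16 Val_LNA embryos had in addition an antisense oligonucleotide with locked nucleic acid (LNA) bases against tRFValCAC, a fragment of a valine tRNA, and the 16 Ctrl_LNA embryos a scrambled LNA oligonucleotide. The labels name neither a strain nor separate matings or injection days, so the p-values describe the spread among these embryos only, which may be partly technical.

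Values are normalised read counts, which are reads of a gene divided by the size factor of its embryo, so they describe a composition: a smaller total amount of RNA in an embryo cannot be told apart from an unchanged one. The embryos held 2592925 to 6259870 reads, of which 19350 to 102980 were assigned to ribosomal protein genes. Ctrl_LNA 48 stood apart, with 7276 genes detected against 16687 to 20200 in the other 31 embryos, and 8 of the 86 members were at 0 in it. The defining 2-cell markers summed to 3928 to 16192 normalised counts in Val_LNA and 1902 to 16264 in Ctrl_LNA embryos over the 5 listed genes found, and the 6 oocyte markers to 4462 to 27780 and 1536 to 19224. Of markers of other sources, 8 cumulus and granulosa genes summed to at most 249.7 in Val_LNA and 142.2 in Ctrl_LNA. Foxl2 and Fshr were at 0 in every control and were detected in 1 and 2 Val_LNA embryos, with Val_LNA means of 0.32 and 0.29. Amh, Has2 and Inhba were detected in 1, 2 and 1 Val_LNA embryos and in 4, 7 and 2 Ctrl_LNA embryos. Ptx3 was detected in 2 Val_LNA embryos and 1 Ctrl_LNA embryo, and Cyp19a1 in 4 embryos of each group. Tnfaip6, the only tested gene of this list, was detected in 13 Val_LNA and 9 Ctrl_LNA embryos. Its means were 20.0 ± 14.2 (SD) in Val_LNA and 5.55 ± 8.83 in Ctrl_LNA (limma unadjusted p = 0.00384, adjusted p = 0.107). The 4 sperm genes summed to at most 58.6 in Val_LNA and 50.4 in Ctrl_LNA. Among 3 blood genes, the globin gene Hba-a1 reached 836.5 in Val_LNA and 672.4 in Ctrl_LNA, with medians of 153.4 and 135.4. The other 2 were near 0: the globin gene Hbb-bs reached 0.87 in Val_LNA and 3.03 in Ctrl_LNA, and Ptprc 4.91 and 6.3.

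The start regions of 64 of the 86 genes are in the RefSeq promoter table for GRCm38.p6. They were searched on the sense strand for a C followed by at least 4 bases that are each C or T. Such a tract began exactly at the RefSeq start of 13 of these 64 genes (20.3%), against 813 of all 27025 genes in the table (3.01%) and 0 of 68 mitochondrial ribosomal protein genes. Within 10 bases of the start, 39 of 64 (60.9%) had one, against 34.4% of all genes. The opposite strand had one in 15 of 64 (23.4%), against 38.5% of all genes. The 5 members with a tract and the smallest p between Val_LNA and Ctrl_LNA embryos show what the tract looks like. Each line gives 30 bases, 15 on either side of the RefSeq start, with the tract in capitals and the first transcribed base as the sixteenth letter:
Rps21, chr2:180257364-180257393 (+): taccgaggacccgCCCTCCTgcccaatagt
Rpl38, chr11:114668565-114668594 (+): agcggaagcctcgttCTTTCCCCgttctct
Rpl35a, chr16:33056467-33056496 (+): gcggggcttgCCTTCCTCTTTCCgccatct
Rpl35, chr2:39005117-39005146 (-): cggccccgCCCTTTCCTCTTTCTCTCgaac
Rpl13a, chr7:45128731-45128760 (-): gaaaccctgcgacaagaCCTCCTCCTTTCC

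In Rpl38 the tract opens on the annotated first base. In Rpl35a and Rpl35 the start lies inside a longer tract of 13 and 18 bases, and in Rpl13a the tract runs past the end of the window. Rps16, Rpl13 and the stalk gene Rplp0 had no such tract within 10 bases of the RefSeq start, and their windows are shown for contrast, with no letters marked:
Rps16, chr7:28350674-28350703 (+): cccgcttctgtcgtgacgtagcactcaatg
Rpl13, chr8:123102335-123102364 (+): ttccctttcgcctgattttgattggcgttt
Rplp0, chr5:115559452-115559481 (+): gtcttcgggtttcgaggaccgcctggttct

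In Rps16 and Rpl13 a C followed by at least 4 pyrimidines begins upstream of the searched distance. A match is only a description of these letters, the start used in embryos may differ from the annotated one, and no member's measured change is tied to its tract here.

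Ribosomal protein genes took 0.409% of the normalised counts in the lowest Val_LNA embryo, 1.01% at the median and 1.82% in the highest. In Ctrl_LNA embryos the lowest share was 0.617%, the median 1.22% and the highest 1.74%. The groups overlapped over nearly their whole range, and the lowest (Val_LNA 14) and the highest (Val_LNA 7) embryo of the series were both Val_LNA. The large subunit share had medians of 0.468% in Val_LNA and 0.590% in Ctrl_LNA, and the small subunit share 0.355% and 0.497%. The 3 stalk genes differed less, at 0.176% and 0.189%.

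**Figure D1:**
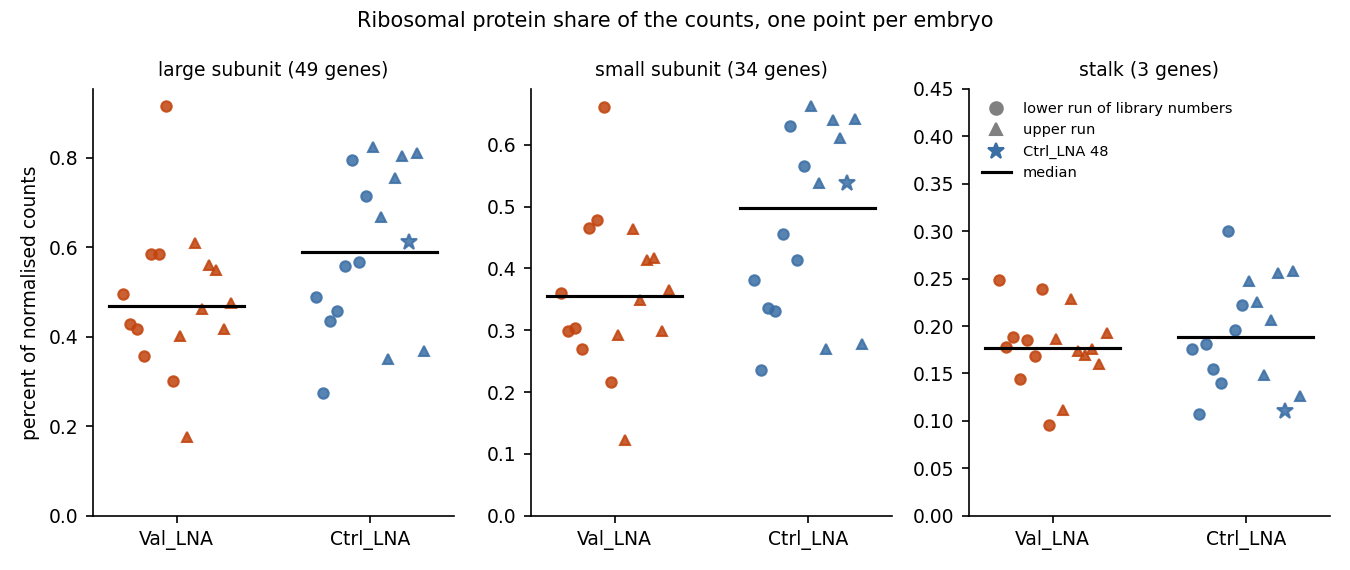
Share of the normalised counts, in percent, taken by the ribosomal protein genes of the large subunit, the small subunit and the stalk. Each point is 1 embryo, with Val_LNA left of Ctrl_LNA, circles and triangles for the lower and upper runs of library numbers, a star for Ctrl_LNA 48 and a line at the median; the groups overlap in every panel, with small subunit medians of 0.355% and 0.497%.

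The ratio of the subunits varied less between embryos than the sum of the members did. Ratios of other gene sets were not computed for comparison. Across all 32 embryos the summed counts of the members varied 2.92-fold. The sum of the small subunit divided by that of the large subunit varied 1.26-fold, averaging 0.743 ± 0.032 (SD) over the 16 Val_LNA and 0.793 ± 0.043 over the 16 Ctrl_LNA embryos, or 0.787 ± 0.038 over the controls without Ctrl_LNA 48. Its range was 0.699 to 0.816 in Val_LNA and 0.723 to 0.879 in Ctrl_LNA, so the groups overlapped. Of 85 tested members, 30 had their lowest value of all embryos in Val_LNA 14, 20 in Ctrl_LNA 48 and 13 in Ctrl_LNA 32. The highest value fell in Ctrl_LNA 48 for 22 members, in Ctrl_LNA 36 for 15 and in Val_LNA 7 for 12. Ctrl_LNA 48 thus held both the lowest value of 20 members and the highest value of 22.

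The embryos with a small share were not poor in reads. Val_LNA 14 had 4736289 reads and 17138 detected genes, and its oocyte marker sum of 27780 was the highest of all. Val_LNA 8, with a ribosomal protein share of 0.613%, had oocyte and 2-cell marker sums of 17960 and 15595. Ctrl_LNA 32, the lowest control at 0.617%, had the highest 2-cell marker sum of all, 16264, and an oocyte marker sum of 9430. At the other end, Val_LNA 7 (1.82%) had oocyte and 2-cell sums of 5993 and 4481, Ctrl_LNA 43 (1.74%) 4948 and 3844, and Ctrl_LNA 36 (1.73%) 9817 and 9540. The oocyte marker sums had medians of 12044 in Val_LNA and 7612 in Ctrl_LNA and the 2-cell sums 6451 in Val_LNA and 4567 in Ctrl_LNA, with ranges that overlapped between the groups. Their part in the ribosomal protein values was not tested.

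Between groups, 85 members entered the test, which needed a normalised count of at least 10 in at least 8 embryos. Rps12l1, a gene with the symbol of an Rps12 copy, did not, with a highest value of 2.61 in Val_LNA and 3.17 in Ctrl_LNA. In limma on log2(normalised count + 1), with Benjamini-Hochberg adjustment over all 15559 tested genes, 1 of 85 members was lower in Val_LNA, 0 were higher and the other members did not pass an adjusted p of 0.05. Of all tested genes 1.31% were called lower and 0.881% higher, so the 1.18% of members called lower is near the background. In 0 of 85 members did the groups not overlap, against 0.0321% of all tested genes with every Val_LNA embryo lower and 0% with every one higher. EdgeR's quasi-likelihood test called 1 member lower and DESeq2 called 2, Rps16 among them, against 1.05% and 2.17% of all genes lower. With each embryo's median gene subtracted on the log2 scale, limma called 0 members lower, against 1.93% of all genes, and with the filter on low values removed it also called 0. At an unadjusted p under 0.05, 16 members were lower and 0 higher, where 5.85% of all tested genes were lower and 8.88% higher.

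The direction of the members was less mixed than their calls. Of 85 members, 67 (78.8%) had a negative log2 fold change (Val_LNA minus Ctrl_LNA), against 35.7% of all tested genes. The median was -0.29 for the members and 0.26 for all tested genes. Without Ctrl_LNA 48 these medians were -0.30 and 0.07, and 77 of 85 members (90.6%) were negative, against 45.8% of all genes. By subunit, 37 of 49 large subunit, 28 of 33 small subunit and 2 of 3 stalk genes were negative, with medians of -0.31, -0.29 and -0.03. Of 77 mitochondrial ribosomal protein genes, 36 were negative and the median was 0.03 (-0.13 without Ctrl_LNA 48). All members were measured in the same embryos and are not independent of each other in this count, so the counts and medians are descriptions.

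**Figure D2:**
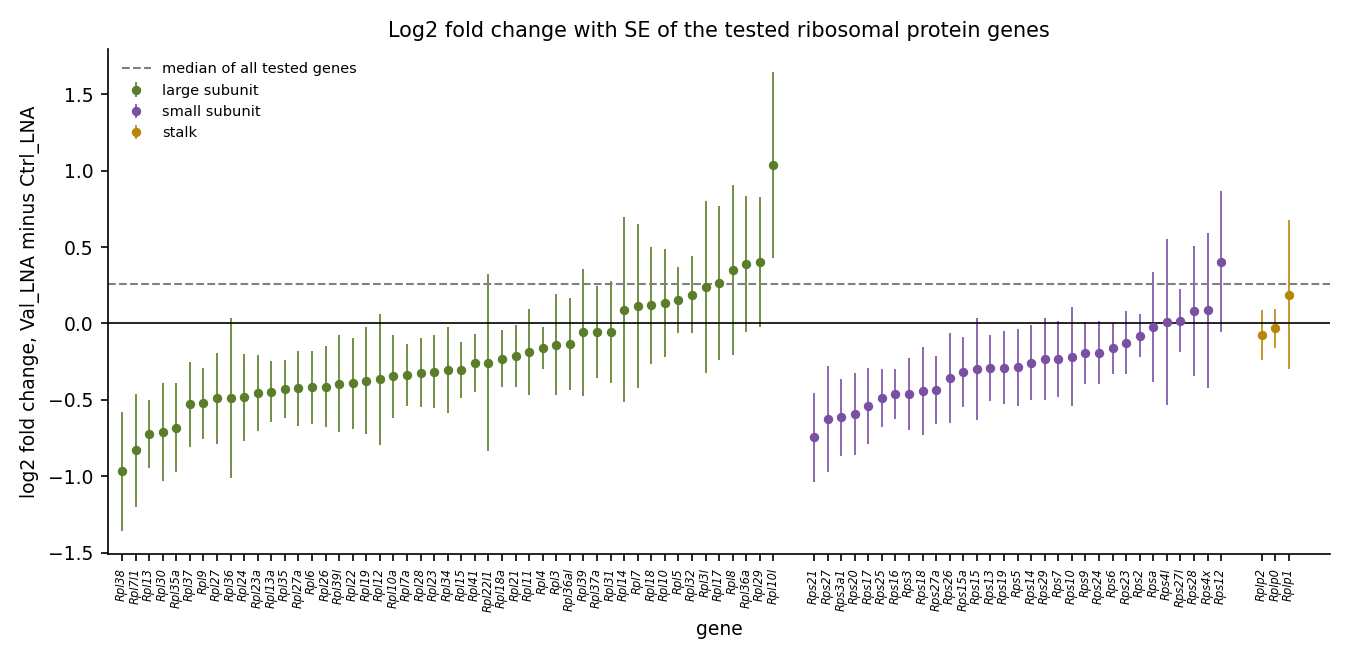
Log2 fold change on the log2(normalised count + 1) scale, Val_LNA minus Ctrl_LNA, with its SE for 83 tested members, in order of size within the large subunit, small subunit and stalk. Most points lie below 0 and below the dashed line at the median of all tested genes (0.26), and the positive members with wide bars include genes at 0 in Ctrl_LNA 48.

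**Figure D3:**
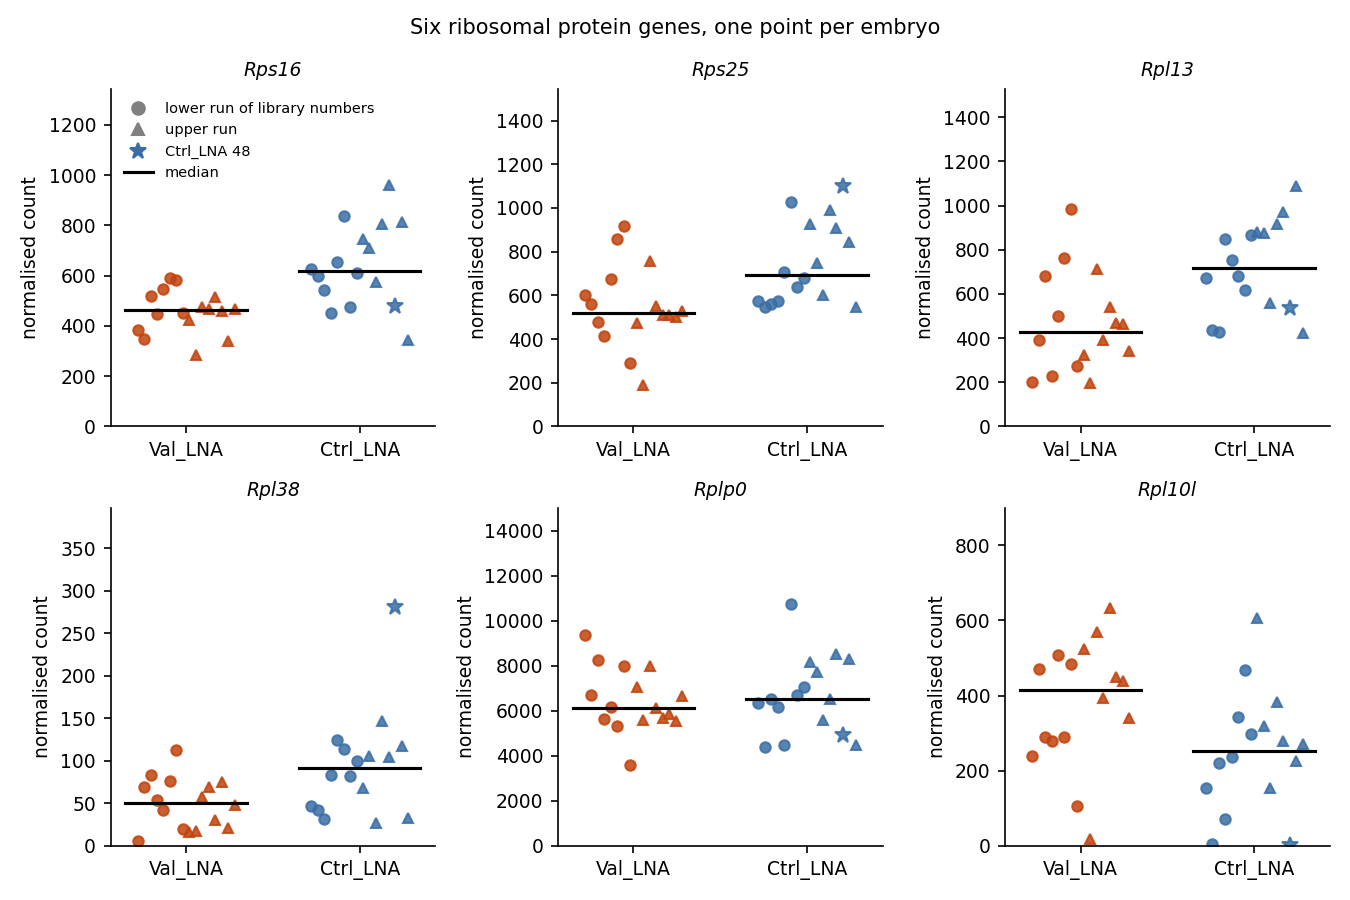
Normalised count per embryo for Rps16, Rps25, Rpl13, Rpl38, Rplp0 and Rpl10l, with Val_LNA left of Ctrl_LNA, circles and triangles for the lower and upper runs of library numbers, a star for Ctrl_LNA 48 and a line at the median. For Rps16 all 16 Val_LNA embryos lie below the control median of 618.7, for Rplp0 the groups coincide, and for Rpl38 the highest point is Ctrl_LNA 48.

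Among small subunit genes, Rps16, Rps25 and Rps21 had small p-values and did not pass in limma with all embryos. Rps16, whose tail reaches the tRNA in the peptidyl site, had 285.5, 463.3 and 591.7 normalised counts at the lowest, median and highest Val_LNA embryo, against 345.3, 618.7 and 961.0 in Ctrl_LNA. All 16 Val_LNA embryos lay below the control median, within ranges that overlapped. Its log2 fold change was -0.46 ± 0.16 (SE, limma adjusted p = 0.148), and it passed without Ctrl_LNA 48 (adjusted p = 0.0437) and in DESeq2 (adjusted p = 0.0234). Rps25, which many viral internal ribosome entry sites need, had medians of 520.1 and 693.6 (-0.49 ± 0.19, limma adjusted p = 0.207). Rps21 had medians of 101.0 and 162.8 (-0.74 ± 0.29, limma adjusted p = 0.212).

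In the large subunit 0 of 49 genes passed in limma with all embryos weighted alike. Rpl13 had the smallest p among them. It counted 198.2, 427.6 and 984.1 at the lowest, median and highest Val_LNA embryo, against 421.6, 716.5 and 1087 in Ctrl_LNA, and 14 of 16 Val_LNA embryos were below the control median. Its log2 fold change was -0.72 ± 0.22 (SE, limma adjusted p = 0.0871), and it passed without Ctrl_LNA 48 (adjusted p = 0.0374) and not in edgeR (adjusted p = 0.185). Rpl38, which in mouse is needed for the translation of Hox mRNAs and for the pattern of the axial skeleton, had the lowest log2 fold change, -0.97 ± 0.39 (limma adjusted p = 0.23). It counted 5.49, 50.5 and 112.1 at the lowest, median and highest Val_LNA embryo, against 26.2, 91.0 and 280.4 in Ctrl_LNA. The highest of these was Ctrl_LNA 48, and without that embryo the log2 fold change was -0.84 (adjusted p = 0.219).

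Without Ctrl_LNA 48, limma called 3 of 85 members lower, Rps16 and Rpl13 among them, and 0 higher, where 2.63% of all tested genes were lower and 1.57% higher. In edgeR without that embryo 3 were lower, among them Rps16 and Rpl13a, a protein that also joins the complex silencing inflammatory mRNAs, and 1.61% of all genes were lower. With array weights, which give an unusual library less weight, 4 were lower, among them Rpl13, Rpl13a and Rpl36, against 3.62% of all genes. Each count rests on 3 or 4 members, and whether their shares differ from those of all genes was not tested.

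Among the members with the highest log2 fold changes, the values of Rpl8, Rps12 and Rpl29 depended largely on Ctrl_LNA 48. Rpl8, which lies at the peptidyl transferase centre, Rps12 and Rpl29 were at 0 in Ctrl_LNA 48 and between 53.03 and 510.3 at the Val_LNA median. Their log2 fold changes were 0.35 ± 0.55, 0.40 ± 0.46 and 0.40 ± 0.43 (SE), and without Ctrl_LNA 48 they were -0.22, -0.04 and 0.04. Rpl36a had 0.39 ± 0.45 with all embryos and 0.47 without that one, with 2.71 normalised counts in Ctrl_LNA 32. None of these passed in limma, with adjusted p between 0.66 and 0.782.

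Of the 3 stalk genes, 0 passed. Rplp0, the protein that anchors the stalk, counted 3579, 6142 and 9384 at the lowest, median and highest Val_LNA embryo, against 4376, 6525 and 10759 in Ctrl_LNA, and the groups coincided (log2 fold change -0.03 ± 0.13, limma adjusted p = 0.92). It was the 27th most abundant of all tested genes by mean count. In Val_LNA 14, where the members summed to 24121 normalised counts, it made up 23.1% of the sum, against 11.4% in Val_LNA 7 and 7.26% in Ctrl_LNA 48. Of the proteins it anchors, Rplp2 averaged 653.8 ± 157.1 (SD) in the 16 Val_LNA and 691.6 ± 171.0 in the 16 Ctrl_LNA embryos. Rplp1 averaged 363.4 ± 128.9 and 405.6 ± 156.1, and was at 1.05 in Ctrl_LNA 48. The log2 values of Rplp0 had an SD of 0.33 in Val_LNA and 0.38 in Ctrl_LNA.

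Members varied less between embryos of a group than most genes did. The median SD of log2(normalised count + 1) was 0.62 over the 85 members in Val_LNA, against 1.25 over all tested genes, and 82 of 85 members lay below the median gene. In Ctrl_LNA the medians were 0.71 and 1.85, and 0.59 and 1.15 without Ctrl_LNA 48. The members were also more abundant, with a median mean count of 419.0 against 80.8 for all tested genes, and low genes spread more on this scale. Within Val_LNA the narrowest member was Rps16 (SD 0.29) and the widest Rpl22l1 (SD 1.45). In Ctrl_LNA without embryo 48 they were Rps2 (0.27) and Rps4x (2.05). Rps4x was at 1.81 in Ctrl_LNA 32 and at 197.0 or more in the other controls.

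Levels were compared between members only per kilobase of transcript, as normalised count per kb averaged over all embryos. The length was the median of the coding transcripts in the consensus coding sequence set for 84 genes and the union of exons for 2. Of the 85 tested members, 63 lay within 2-fold of the median of 494.3 per kb, and the quartiles were 326.8 and 765.7. Small subunit genes had a median of 699.7 per kb and large subunit genes 360.8. The highest level per kb was 118.0 times the lowest.

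Rpl41, the smallest ribosomal protein, led with 5096 per kb, ahead of Rplp0 with 4837, Rps10 with 1985 and Rplp2 with 1498. Rpl41 had 4635 ± 1347 per kb in Val_LNA and 5557 ± 2069 in Ctrl_LNA, and Rplp0 4764 ± 1041 and 4910 ± 1287 (SD, n = 16 each), so these neighbours did not differ beyond their spread. The value of Rps10, a protein modified when ribosomes collide, depended on Ctrl_LNA 48, where it counted 9389 against at most 1811 in every other embryo. At the low end were Rps20 with 43.2 per kb, Rpl3l with 50.1, Rps15a with 50.7, Rpl22l1 with 75.4 and Rpl29 with 78.3. For Rps20 and Rps15a the annotated transcripts used here were 3706 and 5130 bases long, which lowers a value per kb.

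Several ribosomal proteins have a second gene whose product can take the same place, and mice use some of these in particular tissues. Rpl10l, which replaces the X-linked Rpl10 in the male germ line during meiosis, counted 18.7, 415.5 and 634.2 at the lowest, median and highest Val_LNA embryo, against 1.05, 252.6 and 605.8 in Ctrl_LNA. Of the Val_LNA embryos, 13 of 16 lay above the control median. Its log2 fold change was the highest of the members, 1.04 ± 0.61 (SE, limma adjusted p = 0.42), with Ctrl_LNA 48 at 1.05 and Ctrl_LNA 32 at 5.42. It was 0.62 without Ctrl_LNA 48 (adjusted p = 0.538), 0.51 in edgeR and 0.10 in the upper runs without that embryo. It did not pass in any fit. Per kb it was at 307.4 against 1155 for Rpl10, and lower than Rpl10 in 32 of 32 embryos.

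**Figure D4:**
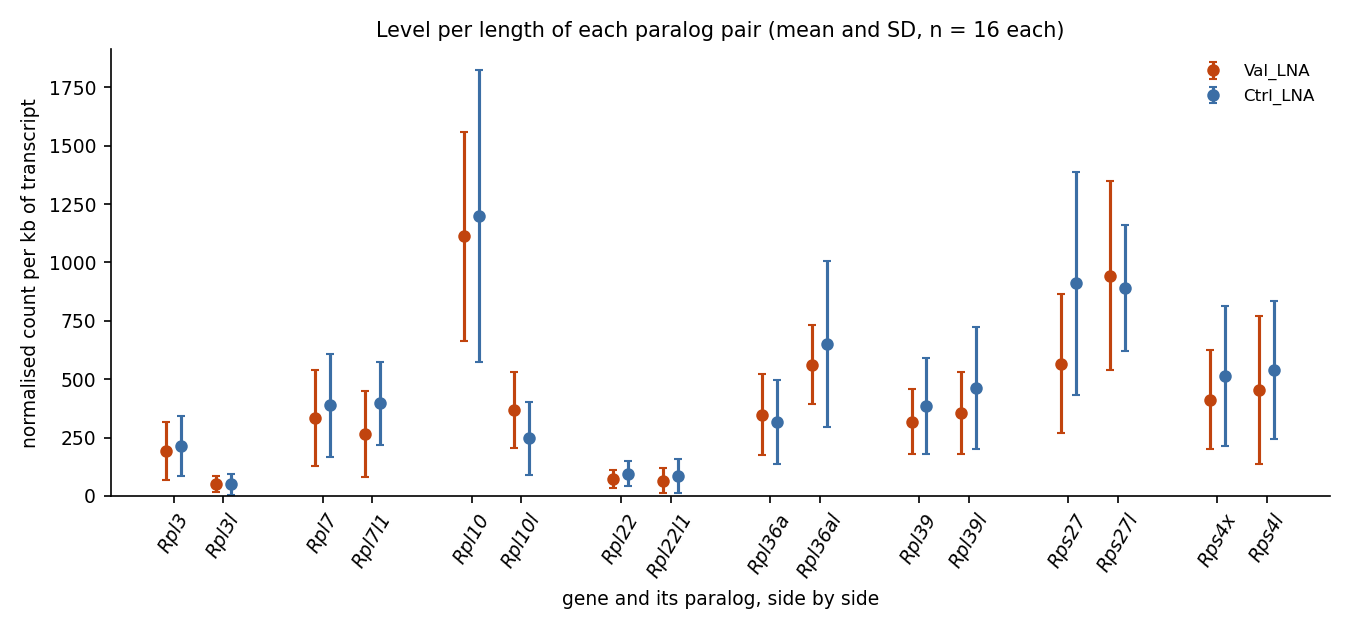
Normalised count per kb of transcript (mean and SD, n = 16 each) of 8 ribosomal protein genes and their paralogs, Val_LNA left of Ctrl_LNA within each gene. The Rpl10l means lie below those of Rpl10 with bars that do not meet, the Rpl36al means lie above those of Rpl36a, and in the pairs other than Rpl10 the bars overlap.

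The other pairs differed in which gene led. Rpl36al, an autosomal copy of the X-linked Rpl36a, was at 605.8 per kb against 332.4 and was the higher of the pair in 31 of 32 embryos. Rpl3l, known from heart and skeletal muscle, was at 50.1 per kb against 203.1 for Rpl3 and higher in 2 of 32. Rpl39l, known from testis, was at 407.9 against 351.0 for Rpl39, and Rps27l, a p53 target, at 917.1 against 738.2 for Rps27, each higher in 19 of 32 embryos. Rps4l was at 497.6 against 463.1 for Rps4x, Rpl7l1 at 330.9 against 360.3 for Rpl7, and Rpl22l1 at 75.4 against 83.7 for Rpl22, with 16, 15 and 13 embryos in which the copy was higher. In these last 5 pairs the means lay within the spread between embryos.

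Of the 16 genes in these pairs, 0 passed between groups in limma. Rpl7l1 had a log2 fold change of -0.83 ± 0.37 (limma adjusted p = 0.288) beside 0.11 for Rpl7, which was at 2.10 in Ctrl_LNA 48. Without that embryo the values were -0.76 and -0.33. Rps27 had -0.62 beside 0.02 for Rps27l, and -0.58 and 0.07 without that embryo. The ratio of copy to partner depended on the length used. With the union of all exons in place of the coding transcripts it was 1.19 in place of 0.92 for Rpl7l1 and 0.35 in place of 0.90 for Rpl22l1, which turns the order of the first pair. It was 0.66 in place of 0.27 for Rpl10l and 0.42 in place of 0.25 for Rpl3l. For Rpl36al it was 3.49 in place of 1.82, for Rps27l 2.47 in place of 1.24 and for Rpl39l 2.22 in place of 1.16. The ratio for Rps4l, 1.07 with coding transcripts, was higher with the union as well. Pairs that are close in sequence, and the 156 pseudogene symbols of the table, which took 0.031% to 0.088% of the counts, may share reads with members, so single gene levels are uncertain where copies are near identical.

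Embryos 1 to 8 (Val_LNA) and 31 to 38 (Ctrl_LNA) form the lower runs of library numbers, and 13 to 20 and 43 to 50 the upper runs, which the labels do not call batches. In the lower runs the members' median log2 fold change was -0.02, with 48 of 85 negative, against 0.03 for all tested genes and 47.6% negative. In the upper runs it was -0.52, with 73 of 85 negative, against 0.44 and 33.5%. The members were thus centred near 0 in the lower runs and below 0 in the upper runs. Without Ctrl_LNA 48 the upper runs gave -0.62 and 82 of 85 negative, against 0.07 and 46.4% of all genes.

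The share of counts followed the same pattern. In the lower runs the medians were 1.01% in Val_LNA and 1.10% in Ctrl_LNA. In the upper runs they were 1.01% and 1.52%, or 1.60% in controls without Ctrl_LNA 48. The Val_LNA medians were thus alike in both runs while the control medians were not, although 2 upper-run controls, Ctrl_LNA 45 and Ctrl_LNA 50, were at 0.769% and 0.771%.

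**Figure D5:**
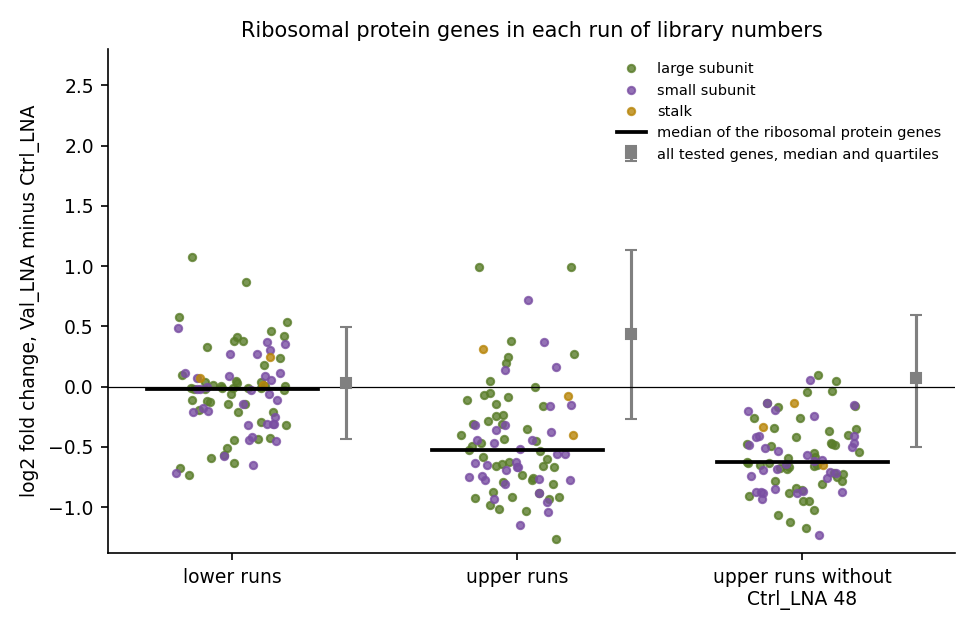
Log2 fold change (Val_LNA minus Ctrl_LNA) of the 85 tested members, 1 point per gene, in the lower runs, the upper runs and the upper runs without Ctrl_LNA 48, with a line at their median and a grey square with quartiles for all tested genes. The member medians are -0.02, -0.52 and -0.62, and the run difference passed the test for 0 members.

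The difference between the runs did not pass for any member. A limma interaction of group and run called 0 of 85 members and 0 of all 15559 genes (0% called), with 4 members and 808 genes at an unadjusted p under 0.05. Without Ctrl_LNA 48 it again called 0 members and 0 genes, with 11 members and 920 genes at an unadjusted p under 0.05. The difference was negative in 71 of 85 members with all embryos, against 36.7% of all genes, and in 81 of 85 without Ctrl_LNA 48, against 48.9%. Within each run alone limma called 0 of 85 members, where 0.533% of all genes were lower in the lower and 0.212% in the upper runs. Rpl17 was called in the upper runs without Ctrl_LNA 48 (-1.06, limma adjusted p = 0.0291, 1 of 85 members against 0.797% of all genes lower), and had 0.58 in the lower runs.

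Genes around the ribosome were read from lists. Of the ribosomal protein genes with other symbols, Fau had means of 859.1 ± 287.3 in Val_LNA and 1023 ± 426 in Ctrl_LNA, and Rack1 (Gnb2l1) 270.1 ± 107.9 and 376.2 ± 222.2 (SD, n = 16 each). Neither passed, and Rps27a, a ubiquitin fusion and a member, had the smallest p of this list (log2 fold change -0.43, limma adjusted p = 0.36).

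Among 23 tested TOP transcripts outside the ribosomal proteins, which include the noncoding snoRNA hosts Gas5 and Snhg1, 1 fell, 1 rose and 21 did not pass, with a median of 0.08. Hnrnpa1, a nuclear RNA-binding protein, fell, with medians of 758.3 in Val_LNA and 2004 in Ctrl_LNA (log2 fold change -1.57 ± 0.22, limma adjusted p = 2.56e-05). Eif3h, a subunit of an initiation factor, rose in limma (2.53 ± 0.66, adjusted p = 0.029) and did not pass in edgeR (0.86, adjusted p = 0.642). Without Ctrl_LNA 48 the nucleolar gene Npm1 (adjusted p = 0.0178) was also lower and the initiation factor gene Eif4b (adjusted p = 0.00879) also higher in limma. The elongation factor genes of this list did not pass: Eef1a1 averaged 3592 ± 1617 in Val_LNA and 3236 ± 1535 in Ctrl_LNA, and Eef2 1882 ± 494 and 2118 ± 766 (SD, n = 16 each).

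Of 22 tested regulators of TOP mRNAs and mTORC1, 0 passed in limma with all embryos and 4 had an unadjusted p under 0.05. At that p Larp1, Rheb and Mlst8 were lower and Rptor higher, beside 5.85% of all tested genes lower and 8.88% higher. Rheb, the GTPase that activates mTORC1, had the smallest p, averaging 142.2 ± 77.1 (SD) over the 16 Val_LNA and 312.6 ± 300.9 over the 16 Ctrl_LNA embryos (log2 fold change -1.05 ± 0.30, limma adjusted p = 0.0546). It passed without Ctrl_LNA 48 (adjusted p = 0.0224) and in DESeq2 (adjusted p = 0.0103), and not in edgeR (adjusted p = 0.0577). Larp1, which binds the TOP tract and holds these mRNAs, was named after its values were seen. It averaged 54.6 ± 61.5 (SD) in Val_LNA and 135.5 ± 87.9 in Ctrl_LNA embryos (limma adjusted p = 0.064, and 0.0268 without Ctrl_LNA 48). Larp1 did not pass in edgeR (adjusted p = 0.345) or DESeq2 (adjusted p = 0.164). Its level was low and at 0 in 2 of 16 Val_LNA embryos.

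Of 11 tested chaperones that escort single ribosomal proteins, 0 passed, and Bccip, which accompanies Rpl23, had the smallest p (log2 fold change 1.21, limma adjusted p = 0.325). Of 7 genes that connect free ribosomal proteins to Mdm2 and p53, 0 passed, and Trp53 had the smallest p, with medians of 166.7 in Val_LNA and 419.9 in Ctrl_LNA embryos (limma adjusted p = 0.178). Of 16 tested genes of ribosome rescue and quality control, 0 passed in limma with all embryos. The deubiquitinase gene Usp10 passed in limma without Ctrl_LNA 48 (log2 fold change -0.99, adjusted p = 0.0379). With all embryos it did not pass in edgeR (adjusted p = 0.239) or DESeq2 (adjusted p = 0.206). With all embryos Edf1, which senses collided ribosomes, had the smallest p, with 79.4 ± 56.9 in Val_LNA and 217.9 ± 174.1 in Ctrl_LNA embryos (log2 fold change -1.45 ± 0.43, limma adjusted p = 0.0688, DESeq2 adjusted p = 0.00887). Edf1 did not pass in edgeR (adjusted p = 0.0562) or in limma without Ctrl_LNA 48 (adjusted p = 0.0587).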

How the data were processed

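Per the labels' protocols, each library is 1 embryo, from polyadenylated RNA by template switching, 20 PCR cycles and tagmentation, with no molecular identifier or strand mark, so counting intervals would cover counting error only and overlapping genes cannot be told apart. The deposited signal is, per the file headers, the authors' raw gene count divided by a size factor, and the size factors are deposited as a ratio per embryo, per the file headers. The submitters' processing notes name Bowtie2, STAR, SAMtools, DESeq2 and mm10, with versions not given in the sources used here. Multiplying the signal by the size factors gave whole reads for 1095136 of 1095136 values (100%, largest distance 0.0086), used in the count tests and for depth. All columns were matched to embryos by label.

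Limma 3.58.1 (R 4.3.3, trend and robust) compared log2(value + 1), 16 Val_LNA against 16 Ctrl_LNA embryos, over the 15559 genes with at least 10 in at least 8 embryos. On this scale the pseudocount shrinks the fold change of a gene that is low throughout, while single embryos near 0 can make it larger than in a count test. EdgeR 4.0.16 and DESeq2 1.42.0 ran on recovered reads, and other scalings, filters, pseudocounts, runs and left-out embryos were alternatives. The test was tried on simulated data first. Over 240 library pairs within groups the lowest chi-square per gene was 23.1, so none was treated as a duplicate. Coordinates are GENCODE M21 (GRCm38), and start sequences RefSeq. Members and lists were chosen with earlier results of these data known, and the transcript length after seeing the data. Named members are all that were called, the 5 with the smallest p, the 5 highest and 5 lowest log2 fold changes and levels per kb, paralog pairs and those below the filter, with the called or smallest-p genes of each list. Other genes named were chosen after their values were seen. Some members and list genes that the rule names are not reported here and are left out of the plots of single genes, while counts and sums include them.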

Additional observations from a re-analysis of the deposited data

How the results depend on the processing

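With all embryos limma called 1 member lower, with 137 genes higher and 204 lower of all tested. The members called lower were 0 with no filter, with centring on the median gene, in the lower runs and in the upper runs, 2 in DESeq2, 3 without Ctrl_LNA 48 with centring or edgeR, 4 with array weights, and 1 to 3 when 1 embryo was left out. For the centring with all embryos the median gene of Ctrl_LNA 48 was at 0, and the members' median moved to -0.74. Leave-one-out medians lay between -0.36 and -0.17, without Val_LNA 14 at the upper end. The lower runs gave a median of -0.02. All tested genes called higher were 29 and 43 in edgeR with TMM and with the authors' size factors, 206 in DESeq2, 87 with no filter, 61 with centring, 84 in edgeR without Ctrl_LNA 48, 2 in the upper runs (7 without Ctrl_LNA 48), 353 with array weights and 100 to 245 with 1 embryo left out. Those called lower were 338 in DESeq2, 433 with centring without Ctrl_LNA 48, 83 in the lower runs, 33 in the upper runs (124 without Ctrl_LNA 48), 564 with array weights and 176 to 409 with 1 embryo left out. Of 81 tested genes of the other pathway lists, 1 was called higher and 1 lower. The higher count was 0 in edgeR with either scaling or without Ctrl_LNA 48, in DESeq2, with no filter and in the upper runs with or without that embryo, and 2 with array weights or with centring without Ctrl_LNA 48. The lower count was 0 in the lower runs, 3 in DESeq2, 4 with a pseudocount of 5, and 7 with array weights or with centring without Ctrl_LNA 48. It was 2 with the stricter filter, centring, TMM or library total scaling, run as a term, edgeR without Ctrl_LNA 48 and the upper runs without it. With 1 embryo left out these counts were 0 to 2 higher and 1 to 5 lower. Of 32 named members, 17 changed sign under some of 18 settings, 83 times in all, 0 of them in a called value. The cause of these shifts was not tested. No paired analysis was possible because the groups share no library numbers. Precision is limited by counting at low genes and by spread between embryos elsewhere.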
